A study of Mus musculus with 20 samples.

Results

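The mast cell genes described here are 8 genes chosen by name: Cpa3, Mcpt4, Cma1, Tpsb2, Kit, Fcer1a, Ms4a2 and Hdc, among 15330 genes with an annotated transcript in the tables used. They were followed in RNA from mouse abdominal aorta, in 5 libraries labelled KO and infused with angiotensin II (KO Ang II), 5 from wild-type (WT) mice infused with Ang II at the same dose, and 5 from WT mice infused with saline. Ang II, the peptide hormone that constricts arteries, was given at 500 ng per kg per min. DAPK1, a kinase that calcium and calmodulin activate, is named in the title of the series. The sources used here do not give how the KO allele was made, the strain, sex or age of the mice, or the length of the infusion. Each library carries a number in its title, taken here as that of the animal, and is named by that title. A set of 5 libraries titled and genotyped as KO given saline, which their description calls WT, came with a table of only 2025 transcripts and entered no comparison.

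Mast cells are tissue-resident immune cells that mature under stem cell factor, the ligand of the receptor tyrosine kinase KIT, and in arteries they sit mostly in the outer coat. They store proteases bound to serglycin, together with histamine, in granules that they release when antigen crosslinks IgE on the high-affinity receptor. Mast cells of connective tissue hold chymases, tryptases and carboxypeptidase A3, whereas mast cells of the intestinal mucosa hold another set of chymases.

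The 4 granule protease genes differ in what they encode and where they lie on GRCm38. Cpa3 (ENSMUSG00000001865.2, chr3:20215620-20242181, minus strand) encodes mast cell carboxypeptidase A, which removes residues from the ends of peptides. Mcpt4 (ENSMUSG00000061068.7, chr14:56059629-56062313, minus strand) encodes the connective tissue chymase of the mouse, an enzyme that can form Ang II from Ang I. Cma1 (ENSMUSG00000022225.7, chr14:55941451-55944675, minus strand) encodes another chymase-family protease. Cma1 and Mcpt4 are 114953 bases apart, and of the 6 protein-coding genes from one to the other, these 2 were the ones listed in the tables. Tpsb2 (ENSMUSG00000033825.10, chr17:25366305-25369098, plus strand) encodes a mast cell tryptase.

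The promoters of Cpa3, Mcpt4 and Cma1 are shown because these 3 genes varied together most closely across the libraries, as described further on. Each is the 250 bases before the gene's start in RefSeq on GRCm38.p6, read on the gene's strand, at chr3:20242182-20242431 for Cpa3, chr14:56062311-56062560 for Mcpt4 and chr14:55944676-55944925 for Cma1. Capitals mark matches to a GATA motif, searched on both strands in 4 spellings. The first was AGATAA and the next was TGATAA. The spelling AGATAG was included as well. So was the spelling TGATAG.
Cpa3: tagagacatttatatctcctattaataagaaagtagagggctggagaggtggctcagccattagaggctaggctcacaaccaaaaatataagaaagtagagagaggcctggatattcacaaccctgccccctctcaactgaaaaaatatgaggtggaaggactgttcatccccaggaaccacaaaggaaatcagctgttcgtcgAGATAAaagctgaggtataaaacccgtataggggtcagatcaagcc
Mcpt4: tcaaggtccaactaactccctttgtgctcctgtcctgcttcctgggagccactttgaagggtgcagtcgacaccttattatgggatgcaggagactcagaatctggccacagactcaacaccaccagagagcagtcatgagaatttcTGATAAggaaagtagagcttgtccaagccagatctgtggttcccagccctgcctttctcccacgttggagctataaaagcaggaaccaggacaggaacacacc
Cma1: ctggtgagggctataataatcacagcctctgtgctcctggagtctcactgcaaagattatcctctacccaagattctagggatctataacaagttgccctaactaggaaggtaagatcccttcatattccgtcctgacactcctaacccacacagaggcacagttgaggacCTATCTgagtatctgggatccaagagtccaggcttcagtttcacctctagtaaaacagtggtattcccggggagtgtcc
GATA2 is a transcription factor that mast cells depend on. A match to these letters began 46 bases before the start in Cpa3, 103 bases before it in Mcpt4 and 79 bases before it in Cma1. Of the 8 genes, 7 had a promoter entry (Tpsb2 had none), and 6 of those 7, all but Kit, held at least 1 match. Among all 32851 promoter entries of this length, 26.5% held one. The letters TATAAA on the gene's own strand were found in 3 of the 7, Cpa3, Mcpt4 and Fcer1a, against 7.59% of all entries, and overlapped no GATA match. CATGTG, an E-box that the factor MITF can bind, was found on either strand in Fcer1a alone, against 12.3% of all entries. A match describes the letters in this window and is not a measured binding site.

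The 4 other genes encode receptors and an enzyme. Kit (ENSMUSG00000005672.12, chr5:75574916-75656722, plus strand) encodes the stem cell factor receptor, which melanocytes and the pacemaker cells of Cajal also carry. Fcer1a (ENSMUSG00000005339.10, chr1:173221284-173227214, minus strand) encodes the IgE-binding chain of the high-affinity IgE receptor, and Ms4a2 (ENSMUSG00000024680.12, chr19:11615523-11623719, minus strand) its beta chain. Hdc (ENSMUSG00000027360.5, chr2:126593667-126619299, minus strand) encodes histidine decarboxylase, which makes histamine.

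Of the 8 genes, 7 were listed. No transcript of Ms4a2 was in any of the tables, so no level is given for it. Kit had 4 listed transcripts and the 6 others 1 each. Values are taken as FPKM, fragments per length of transcript and per size of the library, summed over the listed transcripts of a gene. The labels do not name this unit. Depth worked out from the spacing of the values was 70.1 to 73.5 megareads in KO Ang II, 59.0 to 74.4 in WT Ang II and 62.8 to 67.1 in WT saline libraries, and a gene of the 7 stood on 8 to 4429 reads in a library. Dapk1 itself lay between 4.997 and 13.8 FPKM in KO Ang II, between 3.96 and 19.9 in WT Ang II and between 9.48 and 15.4 in WT saline libraries, so its level does not check the KO label. Transcripts of intestine were followed as the sum of 4 genes, Reg3b, Zg16, Defa30 and Defa32. Every KO Ang II library carried them, with 14.2 to 29.6 FPKM. So did 2 WT Ang II libraries, with 9.22 FPKM in WTAngII580 and 9.81 in WTAngII581. The sum of these 4 was 0 in the 8 others. Over the 11 listed genes of a longer intestinal list, WT saline libraries held 0.243 to 0.909 FPKM, and its member Muc2 was above 0 in every library. In KO Ang II against WT saline libraries 5 intestinal genes passed the test described further on, Reg3b, Zg16, Defa24, Defa30 and Defa32 (limma adjusted p = 0.0115 for each).

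Mast cell transcripts were present at low to moderate levels in every group. Averaged over the 15 libraries, the order was Kit at 7.11 FPKM, Mcpt4 at 5.33, Cma1 at 3.93, Tpsb2 at 3.75, Cpa3 at 3.03, Hdc at 2.41 and Fcer1a at 0.613. Neighbours in this order had overlapping ranges over the libraries in every case. Among the 12636 genes tested, the mean of Kit stood at percentile 51.8, that of Mcpt4 at 41.9 and that of Hdc at 19.05. Fcer1a lay below the mean of 1 FPKM required for the test, which left 6 of the 8 genes tested.

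Values of single libraries are given in the order KOAng_II402, KOAngII537, KOAngII560, KOAngII612 and KOAngII628, then WTAng_II519, WTAng_II536, WTAngII568, WTAngII580 and WTAngII581, then WTNS_369, WTNS_373, WTNS_523, WTNS_547 and WTNS_550. Cpa3 had 1.49, 6.68, 2.86, 1.49 and 0.353 FPKM in libraries labelled KO Ang II, against 3.34, 11.4, 2.29, 2.74 and 5.01 in WT Ang II and 0.501, 0.659, 1.17, 2.20 and 3.33 in WT saline libraries. Library WTAng_II536 was the highest of the 15 and KOAngII628 the lowest, and the ranges of the 3 groups overlapped. The means were 2.57 ± 2.46 in KO Ang II, 4.96 ± 3.75 in WT Ang II and 1.57 ± 1.19 in WT saline libraries (SD, n = 5 each).

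Mcpt4 had 7.04, 11.1, 7.09, 2.51 and 2.75 FPKM in libraries labelled KO Ang II, against 4.44, 16.1, 4.49, 6.04 and 5.50 in WT Ang II and 0.826, 1.88, 3.78, 2.69 and 3.75 in WT saline libraries. All 5 WT Ang II libraries lay above all 5 WT saline libraries, which was seen for none of the 6 other listed genes, and for 0.997% of the 12636 tested genes in either direction. Libraries labelled KO Ang II overlapped both other groups in Mcpt4 and in each of the 6 other listed genes, while 1.12% of tested genes showed no overlap with WT Ang II and 1.83% none with WT saline. The means were 6.09 ± 3.57, 7.30 ± 4.94 and 2.59 ± 1.26 FPKM in KO Ang II, WT Ang II and WT saline libraries (SD, n = 5 each).

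Cma1 had 3.86, 7.05, 3.66, 2.74 and 1.03 FPKM in libraries labelled KO Ang II, against 4.77, 11.9, 3.49, 3.41 and 3.45 in WT Ang II and 1.69, 1.02, 4.80, 2.15 and 3.93 in WT saline libraries. The highest value was again that of WTAng_II536, and the other WT Ang II libraries lay inside the range of the WT saline libraries. The means were 3.67 ± 2.20 in KO Ang II, 5.40 ± 3.67 in WT Ang II and 2.72 ± 1.59 in WT saline libraries (SD, n = 5 each).

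Tpsb2 had 6.17, 0.491, 4.86, 2.57 and 0.894 FPKM in libraries labelled KO Ang II, against 3.94, 13.5, 5.88, 5.03 and 1.87 in WT Ang II and 2.15, 1.34, 0.545, 3.32 and 3.72 in WT saline libraries. WTAng_II536 was the highest here too, 4 of 5 WT Ang II libraries lay above every WT saline library, and the groups overlapped through WTAngII581. The means were 2.997 ± 2.47 in KO Ang II, 6.05 ± 4.45 in WT Ang II and 2.22 ± 1.33 in WT saline libraries (SD, n = 5 each). Summed over the 4 proteases, the libraries held 5.03 to 25.3 FPKM in KO Ang II, 15.8 to 52.9 in WT Ang II and 4.90 to 14.7 in WT saline.

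**Figure D1:**
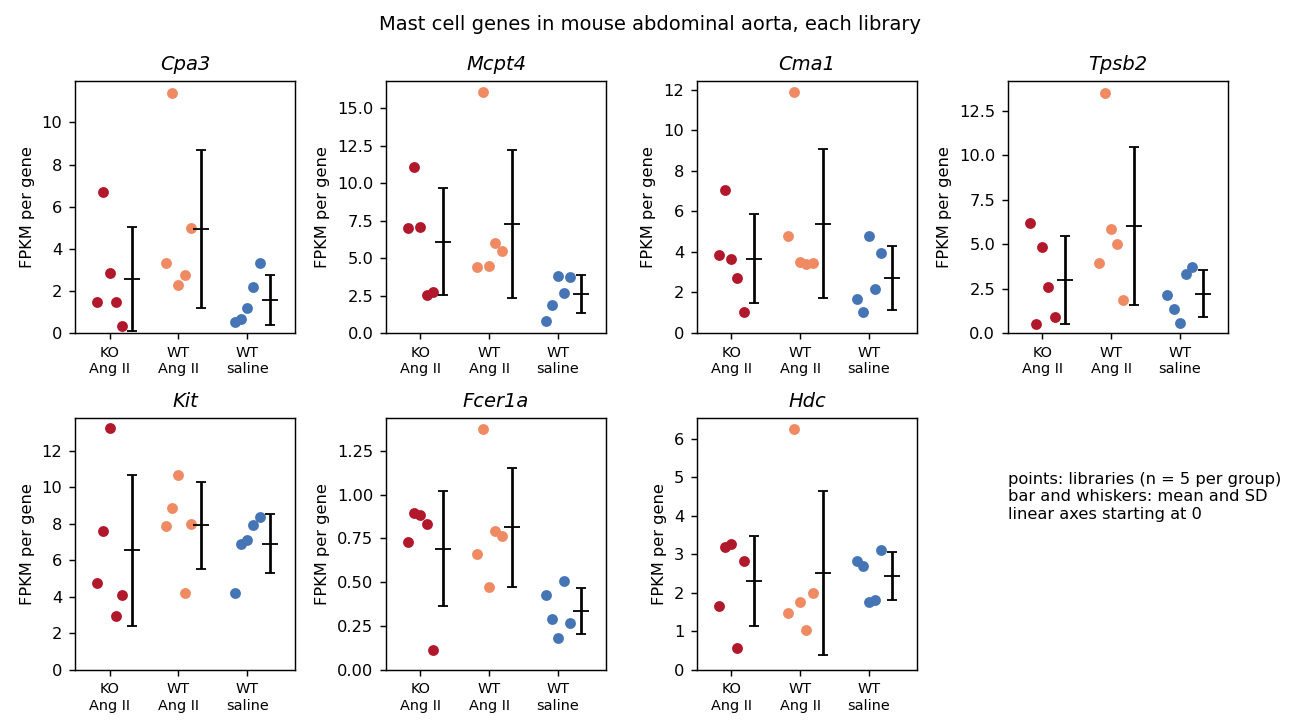
Level of each of the 7 listed mast cell genes in each library, in FPKM per gene on linear axes from 0, for KO Ang II, WT Ang II and WT saline libraries (points, n = 5 each; bar and whiskers are mean and SD). Mcpt4 is the gene in which all WT Ang II points lie above all WT saline points, and the single highest WT Ang II point in the 4 protease panels is WTAng_II536.

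Among the receptors, Fcer1a had 0.729, 0.896, 0.883, 0.832 and 0.114 FPKM in libraries labelled KO Ang II, against 0.660, 1.38, 0.473, 0.794 and 0.766 in WT Ang II and 0.427, 0.287, 0.182, 0.506 and 0.269 in WT saline libraries. In both Ang II groups 4 of 5 libraries lay above the highest WT saline library, the exceptions being KOAngII628 and WTAngII568. The means were 0.691 ± 0.329 in KO Ang II, 0.814 ± 0.339 in WT Ang II and 0.334 ± 0.130 in WT saline libraries (SD, n = 5 each). With a WT saline mean under 0.5 FPKM, Fcer1a was in the WT tables only through its WT Ang II mean. The listing itself thus favoured this order of the WT groups.

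Kit had 4.73, 7.57, 13.3, 2.97 and 4.12 FPKM in libraries labelled KO Ang II, against 7.87, 8.86, 10.7, 4.18 and 7.96 in WT Ang II and 4.19, 6.89, 7.13, 7.93 and 8.34 in WT saline libraries. The groups overlapped throughout, and the highest and the lowest of the 15 libraries, KOAngII560 and KOAngII612, were both labelled KO Ang II. The means were 6.53 ± 4.12, 7.90 ± 2.36 and 6.90 ± 1.62 FPKM in KO Ang II, WT Ang II and WT saline libraries (SD, n = 5 each).

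Hdc, the histamine-forming enzyme, had 1.66, 3.18, 3.27, 0.563 and 2.82 FPKM in libraries labelled KO Ang II, against 1.48, 6.25, 1.76, 1.04 and 1.98 in WT Ang II and 2.83, 2.6955, 1.76, 1.80 and 3.10 in WT saline libraries. Library WTAng_II536 was the highest of the 15, and each of the 4 other WT Ang II libraries lay below the 3 highest WT saline libraries. The means were 2.30 ± 1.16 in KO Ang II, 2.50 ± 2.12 in WT Ang II and 2.44 ± 0.618 in WT saline libraries (SD, n = 5 each).

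Angiotensin II was first compared with saline in WT aorta, the effect of the hormone with Dapk1 intact. None of the 6 tested genes passed the threshold, an adjusted p of 0.05 from limma over all 12636 genes, and neither did any other gene (0% called). Limma's voom on reads recovered from the values called 0 genes as well. At an unadjusted p under 0.05 there were 2 of the 6, Cpa3 and Mcpt4, and 4.88% of all genes. The differences in log2(FPKM + 1), WT Ang II minus WT saline, were positive in 5 of the 6 with a median of 0.89, against 52.6% positive and a median of 0.01 over all genes.

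By gene, Cpa3 differed by 1.15 (SE 0.46, limma adjusted p = 0.941), with a mean 3.15 times that of WT saline libraries. Mcpt4 differed by 1.14 (SE 0.40, limma adjusted p = 0.939), with a mean 2.82 times as high. For Tpsb2 the difference was 1.04 (SE 0.50, limma adjusted p = 0.941) and for Cma1 0.75 (SE 0.40, limma adjusted p = 0.941). Kit, at 0.15 (SE 0.31), and Hdc, at -0.11 (SE 0.34), differed by less than their standard errors. Fcer1a, fitted with no minimum mean, differed by 0.43 (SE 0.165, limma adjusted p = 0.923). It was in the WT tables through its WT Ang II mean alone, so the listing itself favoured this difference, which is no support for a change. Leaving out WTAng_II536 brought Cpa3 to 0.84, Mcpt4 to 0.85, Tpsb2 to 0.73 and Cma1 to 0.46. Without WTNS_369, WTNS_373 and KOAng_II402, the libraries numbered below 500, the differences were 0.76 for Cpa3, 0.77 for Mcpt4, 0.95 for Tpsb2 and 0.37 for Cma1. In bulk tissue, more mast cells and more RNA per mast cell cannot be told apart.

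Libraries labelled KO were then compared with WT under the same Ang II infusion. Again none of the 6 passed (0% of all genes called), and none had an unadjusted p under 0.05, against 7.95% of all genes. All 6 differences, KO Ang II minus WT Ang II, were below 0, with a median of -0.40, against 48.6% above 0 and a median of -0.01 over all genes. Tpsb2 differed by -0.87 (SE 0.50, limma adjusted p = 0.637) and Cpa3 by -0.80 (SE 0.46, limma adjusted p = 0.637). Cma1, at -0.45 (SE 0.40), Kit, at -0.35 (SE 0.31), Mcpt4, at -0.23 (SE 0.40), and Hdc, at -0.02 (SE 0.34), lay closer to 0. Without WTAng_II536, Tpsb2 was at -0.55, Cpa3 at -0.49 and Cma1 at -0.16, while Mcpt4 turned to 0.063 and Hdc to 0.28. Kit was at -0.62 without KOAngII560 and at -0.15 without KOAngII612. The value of Kit includes transcripts with a retained intron, without which its KO Ang II mean was not the lower one, as given further on. This comparison and the last one share the WT Ang II libraries, so a library that is high there moves them in opposite directions.

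Set against WT saline, libraries labelled KO Ang II differ in both allele and infusion. None of the 6 genes passed, while 0.103% of all genes did. Mcpt4, at 0.91 (SE 0.40, limma adjusted p = 0.581), had an unadjusted p of 0.0408, and 8.38% of all genes had one under 0.05. Cpa3 differed by 0.35 (SE 0.46), Cma1 by 0.30 (SE 0.40), Tpsb2 by 0.17 (SE 0.50), Hdc by -0.13 (SE 0.34) and Kit by -0.19 (SE 0.31). Of the 6 differences 4 were above 0, with a median of 0.24, against 52.7% above 0 and a median of 0.02 over all genes. In the plot of the differences by gene, the 4 proteases spread away from 0 in the WT comparison while Kit and Hdc stay near it.

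**Figure D2:**
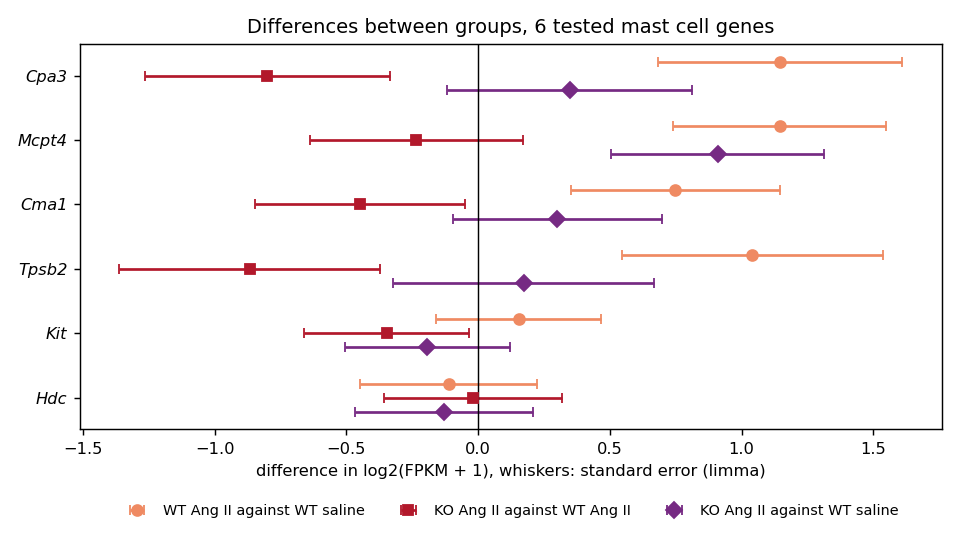
Differences between groups in log2(FPKM + 1) for the 6 tested mast cell genes, with standard errors from limma (circles, WT Ang II against WT saline; squares, KO Ang II against WT Ang II; diamonds, KO Ang II against WT saline). Mcpt4 lies at 1.14 and 0.91 against WT saline and at -0.23 between the Ang II groups, and none of the 18 differences passed the threshold.

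The protease differences were also taken among libraries alike in intestinal transcripts. The WT libraries without them were 3 of Ang II and 5 of saline. Their differences were 1.24 for Cpa3, 1.24 for Mcpt4, 1.01 for Cma1 and 1.41 for Tpsb2, as large as with all libraries. These 3 Ang II libraries included WTAng_II536, the highest of the libraries compared in each of these genes. Leaving WTAng_II536 out of the full set gave 0.84 for Cpa3, 0.85 for Mcpt4, 0.46 for Cma1 and 0.73 for Tpsb2. Its part in the differences among libraries without intestinal transcripts was not tested. The Ang II libraries that carried intestinal transcripts were 5 labelled KO and 2 WT. Between these the differences were -0.65 for Cpa3, -0.31 for Tpsb2, -0.09 for Mcpt4 and -0.06 for Cma1. Mcpt1 and Mcpt2, proteases of mucosal mast cells, had no listed transcript in any library, and neither had Mcpt9.

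Macrophage markers, like the proteases, had higher averages in WT Ang II than in WT saline libraries. Summed over 11 markers, they held 288 to 577 FPKM in KO Ang II, 400 to 554 in WT Ang II and 254 to 363 in WT saline libraries. All 11 were higher on average in WT Ang II than in WT saline libraries, with a median difference of 0.59 and none past the threshold. Over all genes 52.6% of the differences were above 0 and 0% were called. Markers of brown adipocytes, a kind of fat cell found around the vessel, summed to 292 to 2000 FPKM in KO Ang II, 115 to 2152 in WT Ang II and 497 to 2816 in WT saline libraries. The part of either in the differences of the mast cell genes was not tested.

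Across the 15 libraries the genes did not all vary together. Of 21 pairs among the 7 listed genes, 6 had a two-sided permutation p for Pearson's r under 0.05 after Benjamini-Hochberg adjustment, and 5 one for Spearman's rho. They were the 6 pairs among Cpa3, Mcpt4, Cma1 and Fcer1a. Mcpt4 and Cma1 had r = 0.848 and rho = 0.732 (n = 15, adjusted permutation p = 0.00112 and 0.0272), with r = 0.773 without the 2 most distant libraries. In each pair these were the 2 farthest from the median of the first gene named or, with Fcer1a, of the protease. Cpa3 and Mcpt4 had r = 0.840 and rho = 0.718 (adjusted permutation p = 0.00112 and 0.0272), and r = 0.779 without the 2 most distant. Cpa3 and Cma1 had r = 0.864 and rho = 0.700 (adjusted permutation p = 0.00112 and 0.0272), and r = 0.723 without the 2 most distant.

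These 3 relations were of the same size within groups, since r after removing each group's mean was 0.851, 0.838 and 0.827 in the same order. With Fcer1a, r was 0.757 for Cpa3, 0.706 for Mcpt4 and 0.673 for Cma1, the last with an adjusted permutation p for rho of 0.242. These were 0.694, 0.516 and 0.589 after removing group means, and 0.537, 0.639 and 0.447 without the 2 most distant libraries. Libraries share their overall tissue makeup, so that a correlation between these genes does not show control of one by another.

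Tpsb2 varied less closely with the other proteases over the 15 libraries. It had r = 0.440 with Cpa3, 0.424 with Mcpt4 and 0.420 with Cma1 (adjusted permutation p = 0.193 for each). Without the 2 libraries most distant in the other protease, these were -0.0036, 0.14 and -0.013. WTAng_II536 was left out each time and KOAngII537 stayed in. With both of these left out, Tpsb2 and Fcer1a had r = 0.660, against 0.580 in all 15. How far the lower r of Tpsb2 rests on KOAngII537 alone was not tested. In KOAngII537, Tpsb2 was the lowest of the 15 libraries, whereas Cpa3, Mcpt4 and Cma1 were each the second highest. The ratio of Tpsb2 to Mcpt4 ran from 0.0443 in that library to 2.60 in WTNS_369, a range of 58.6 times. It had a range of 18.001 times without KOAngII537 and of 29.6 times without WTNS_369. The ratio of Cma1 to Mcpt4 had a range of 5.44 times (3.38 without WTNS_369) and that of Cpa3 to Mcpt4 one of 7.09 times (4.32 without KOAngII628). Tpsb2 has a close tandem neighbour, the tryptase gene Tpsab1, which had no listed transcript, and how reads of the pair were divided is not stated in the labels or tables.

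**Figure D3:**
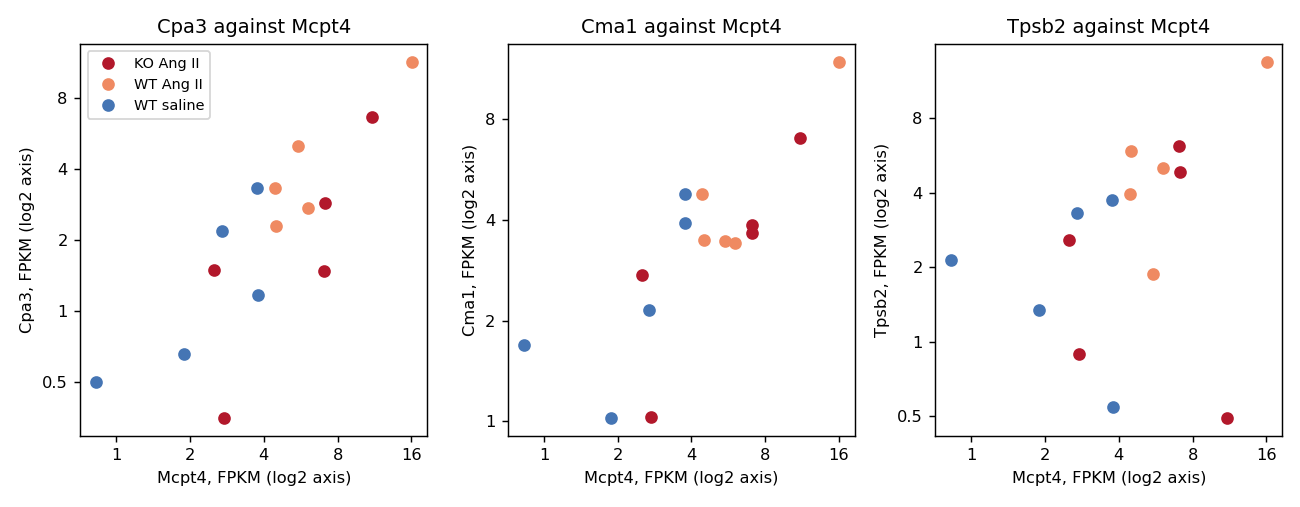
Cpa3, Cma1 and Tpsb2 against Mcpt4 in each of the 15 libraries, in FPKM on log2 axes, for KO Ang II, WT Ang II and WT saline libraries. Cpa3 and Cma1 follow Mcpt4 (r = 0.840 and 0.848 on log2(FPKM + 1)), while Tpsb2 does so less closely (r = 0.424), with KOAngII537 at the lower right.

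Kit was listed as 2 coding transcripts and as 2 transcripts with a retained intron. The coding transcripts differ by a 12-base insert at the end of exon 9 and, outside the coding part, by 39 further bases at the start of the form without the insert. The insert, at chr5:75639147-75639158 on the plus strand, is the known difference between the longer and the shorter KIT receptor near the membrane. The junction is shown with 15 bases on each side, from the GENCODE M21 transcripts, with the insert in capitals.
Kit with the insert: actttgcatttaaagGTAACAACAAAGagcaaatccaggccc
Kit without the insert: actttgcatttaaagagcaaatccaggccc
Libraries differed widely in the share that the authors' values gave to the form with the insert. Its share of the coding FPKM was 18.6%, 15.97%, 83.3%, 26.2% and 0% in the KO Ang II libraries, against 21.9%, 14.0%, 9.44%, 51.4% and 39.7% in WT Ang II and 100%, 0.627%, 77.8%, 27.3% and 19.1% in WT saline libraries. Shares near both ends of the scale were found within WT saline and within KO Ang II, so the groups overlapped. The means were 28.8% ± 31.9 in KO Ang II, 27.3% ± 17.7 in WT Ang II and 45.0% ± 42.0 in WT saline libraries (SD, n = 5 each).

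The high Kit level of KOAngII560 came with the insert, at 9.08 FPKM, against 1.82 FPKM without it. Summed over both coding forms, Kit averaged 5.41 ± 3.41 FPKM in KO Ang II, 5.36 ± 1.78 in WT Ang II and 5.83 ± 1.78 in WT saline libraries (SD, n = 5 each). The retained-intron transcripts added 1.12 ± 0.751 in KO Ang II, 2.55 ± 1.77 in WT Ang II and 1.06 ± 1.12 FPKM in WT saline libraries. Only with these added was the mean of Kit higher in WT Ang II than in either other group. The differences of Kit given above were fitted on the sum of all its listed transcripts, and none was fitted on the coding forms alone. The split between the coding transcripts, which share all but the insert and the bases at the start, rests on the authors' assignment of reads, and which of these bases decided it cannot be told from the tables. The assignment also has an error, which is not given; a share of 0% means that the form was listed at 0 there.

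**Figure D4:**
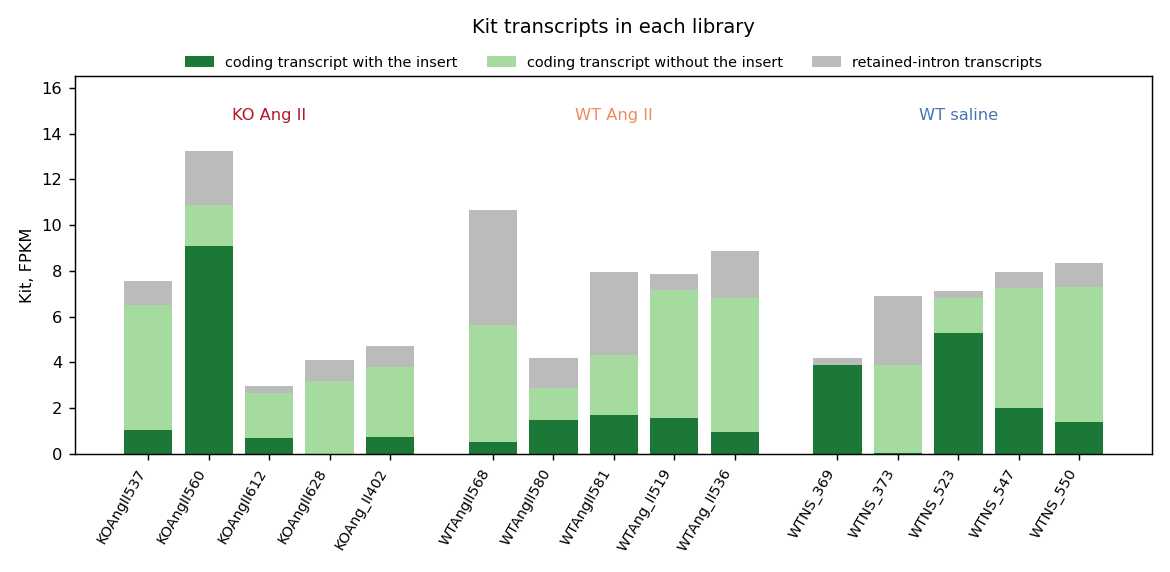
Kit in each library, in FPKM, as stacked bars of the coding transcript with the insert, the coding transcript without it and the retained-intron transcripts, for KO Ang II, WT Ang II and WT saline libraries. The insert form takes from 0% (KOAngII628) to 100% (WTNS_369) of the coding FPKM, with no order by group.

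Other cells that carry KIT were looked for with 7 markers of melanocytes and Cajal cells. The melanocyte genes Dct, Tyr, Tyrp1 and Pmel had no listed transcript, and the 3 markers Mlana, Ano1 and Etv1 did. Mlana, also a melanocyte gene, averaged 0.64, 1.23 and 1.34 FPKM in KO Ang II, WT Ang II and WT saline libraries. It was above 0 in every library. Ano1, a chloride channel of Cajal cells that smooth muscle also expresses, averaged 6.14, 4.55 and 4.15 FPKM in KO Ang II, WT Ang II and WT saline libraries. Etv1, a transcription factor of Cajal cells, averaged 2.22, 2.07 and 1.90 FPKM in the same groups. The summed level of the 3 ran from 3.35 to 17.04 FPKM in KO Ang II, from 7.01 to 9.13 in WT Ang II and from 4.31 to 10.6 in WT saline libraries, and their part in the level of Kit was not tested. Of the basophil markers looked for, Mcpt8, Prss34 and Cd200r3 had no listed transcript and Il4 averaged 1.47 FPKM over the 15 libraries.

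Further genes of connective tissue mast cells, most of which other cells express too, were also followed. Of 18 such genes, 11 were listed and 7 tested, with none past the threshold in any comparison (0%, 0% and 0.103% of all genes called). Their median differences were 0.17 for WT Ang II against WT saline, 0.03 between the Ang II groups (KO minus WT) and 0.16 for KO Ang II against WT saline. Srgn, the serglycin core that holds the proteases and that other blood cells and endothelium also make, averaged 32.7, 44.5 and 38.0 FPKM in KO Ang II, WT Ang II and WT saline libraries. Ltc4s, the leukotriene C4 synthase, averaged 9.76, 9.86 and 8.62 FPKM. Slc18a2, the vesicle transporter that loads histamine, averaged 14.7 ± 14.7 FPKM in KO Ang II, 2.86 ± 1.80 in WT Ang II and 5.28 ± 3.40 in WT saline libraries (SD, n = 5 each). The KO Ang II libraries ran from 0.970 to 37.5 FPKM and averaged 8.98 without KOAngII537; Slc18a2 was chosen for mention after its values were seen. Sympathetic neurons also use it, and their 6 markers summed to 2.73 to 792 FPKM in KO Ang II, 10.1 to 130 in WT Ang II and 8.32 to 430.2 in WT saline libraries.

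The signalling genes that act below KIT and the IgE receptor are shared by many leukocytes. Of 20, 19 were listed and 16 tested, and none passed in any comparison (0%, 0% and 0.103% of all genes called). In WT Ang II against WT saline 10 of the 16 differences were above 0 with a median of 0.14, between the Ang II groups (KO minus WT) 9 with a median of 0.05, and in KO Ang II against WT saline 12 with a median of 0.16. Over all genes 52.6%, 48.6% and 52.7% of the differences were above 0 in these comparisons. Plcg1, a phospholipase that IgE receptor signalling activates, averaged 17.5, 21.7 and 22.8 FPKM in KO Ang II, WT Ang II and WT saline libraries. Stat5b, a transcription factor activated below KIT, averaged 15.9, 16.7 and 16.8 FPKM. Kitl, which encodes stem cell factor itself, averaged 12.4, 10.6 and 11.4 FPKM, and it too was chosen after its values were seen.

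Receptors for mast cell products and genes that act with them made up a list of 14, of which 6 were listed and tested. None passed in any comparison (0%, 0% and 0.103% of all genes called), which does not set this list apart from other genes. The 4 histamine receptors and both cysteinyl leukotriene receptors had no listed transcript, which does not show that they are absent. Ace, the converting enzyme that forms Ang II in parallel with chymase, averaged 117, 138 and 132 FPKM in KO Ang II, WT Ang II and WT saline libraries. Il33, an alarmin that activates mast cells, averaged 15.7, 10.8 and 8.57 FPKM, with a difference of 0.68 for KO Ang II against WT saline (SE 0.31, limma adjusted p = 0.590).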

How the data were processed

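RNA was measured in abdominal aorta, and, per the labels' protocols, libraries were made from total RNA with a NEBNext Ultra RNA kit. The authors deposited 1 value per transcript and library, taken here as FPKM. The submitters' processing notes name bcl2fastq, FastQC, fastp and mm10; the aligner and the quantifier are not named in the labels or tables, and FPKM as the unit was read from the values. Values times transcript length fell on whole multiples of 1 step per library (98.7% to 99.1% of values under 50 reads within 0.05 reads), which gave the depth.

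FPKM of annotated transcripts were summed per gene symbol with GENCODE M21, an unlisted transcript counting as 0. Of 14590 genes with a transcript in both tables, 12636 with a mean of at least 1 FPKM were tested with limma 3.58.1 (trend and robust, R 4.3.3) on log2(FPKM + 1), 15 libraries in 1 model, Benjamini-Hochberg adjusted at 0.05. Differences are on this scale, which understates those of low genes. The fit was tested on simulated data. Correlations used 100000 permutations. Nothing but the number in the title says that libraries come from separate animals, and p-values measure the spread between libraries, which may be technical. The members and lists were chosen with earlier results of these data known. All 8 members are named. From each other list the rule takes the members past the threshold or else the 2 with the highest mean. It also takes the 6 genes most correlated with the members. The marker lists of macrophages, brown adipocytes and sympathetic neurons are given as sums. Those of neutrophils, fibroblasts, white adipocytes, smooth muscle, endothelium and skeletal muscle are not reported.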

Additional observations from a re-analysis of the deposited data

Results flagged for a closer look

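Library WTAng_II536 lay far from the 4 other WT Ang II libraries in 3 of the 7 listed genes. It had 16.1 FPKM of Mcpt4, the next WT Ang II library having 6.04, then 11.9 FPKM of Cma1, the next having 4.77, and 6.25 FPKM of Hdc, the next having 1.98. It was the highest of all 15 libraries in 6 of the 7 genes and ranked 3 in Kit. Library KOAngII628 had 0.114 FPKM of Fcer1a, far below the next KO Ang II library at 0.729, and was also the lowest of the 15 in Cpa3. These were found with Dixon's ratio on FPKM, the gap to the nearest library over the range of the group. Its critical value for 5 libraries is 0.71. For a single gene and group, chance passes it about 1 time in 20 if the values are normally distributed, which was not tested. The 21 combinations of gene and group examined are not independent, since 3 of the 4 are the same library in genes of which Mcpt4 and Cma1 vary together, so the number of them is not a measure of excess.

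In the KO saline libraries, which entered no comparison, 1 Cma1 transcript (ENSMUST00000226280) was listed, with a mean of 0.579 FPKM. It had 0.424, 0.0658, 0.683, 1.40 and 0.325 FPKM, worth 33, 5, 52, 114 and 26 reads. The other tables list another Cma1 transcript (ENSMUST00000022834), so the values of the 2 sets cannot be compared.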

How the results depend on the processing

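No mast cell gene passed the threshold in the comparisons run under each alternative. These were a pseudocount of 0.1, no minimum mean, only transcripts in all tables, quantile normalization, sample weights and voom on recovered reads. The others were libraries alike in intestinal transcripts, no animals numbered below 500, and each library left out in turn. Intestinal transcripts were not matched for KO Ang II against WT saline, and a left-out library bears on the 2 comparisons that use its group. In WT Ang II against WT saline, Cpa3, Mcpt4, Cma1 and Tpsb2 stayed above 0 but shrank most, Tpsb2 apart, without the low-numbered animals, 2 of them WT saline (Cma1 to 0.37). Other differences turned, and the cause was not tested. Between the Ang II groups (KO minus WT), Mcpt4 became 0.011 and Hdc 0.043 with weights, and Hdc 0.33 among libraries alike in intestinal transcripts and 0.036 without the low-numbered animals. Without those animals, Kit became -0.029 in WT Ang II against WT saline, and in KO Ang II against WT saline Tpsb2 became -0.19, Cma1 -0.13 and Hdc 0.024. For WT Ang II against WT saline, voom gave -0.022 for Kit, and libraries alike in intestinal transcripts 0.12 for Hdc. Leaving out 1 library gave -0.47 to 0.063 for Mcpt4 and -0.17 to 0.28 for Hdc between the Ang II groups (above 0 without WTAng_II536, and for Hdc also without KOAng_II402 or KOAngII612). It gave -0.10 to 0.47 for Tpsb2 (below 0 without WTNS_523, KOAng_II402 or KOAngII560) and -0.25 to 0.12 for Hdc (above 0 without KOAngII612) in KO Ang II against WT saline. For Hdc it gave -0.41 to 0.043 in WT Ang II against WT saline (above 0 without WTAngII580). No paired analysis was possible because the groups share no animal numbers.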

Other observations

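The 6 tested genes whose levels over the 15 libraries were most like the average of the mast cell genes were Pltp (r = 0.888), Paqr4 (0.879), Mgl2 (0.869), H2-T23 (0.868), Cd209f (0.855) and Ccbe1 (0.855), with unnamed gene models left out. After removal of group means, r was 0.879, 0.896, 0.876, 0.837, 0.824 and 0.848 in that order. The 6 members that make up the average had r of 0.896 (Cpa3), 0.868 (Mcpt4), 0.855 (Cma1), 0.686 (Kit), 0.602 (Hdc) and 0.596 (Tpsb2) with it. Kit, Hdc and Tpsb2 thus followed the average less closely than these other genes did. Mgl2, a lectin of macrophages and dendritic cells, averaged 8.11, 9.38 and 5.41 FPKM in KO Ang II, WT Ang II and WT saline libraries. Cd209f, another C-type lectin, averaged 5.39, 8.36 and 4.08 FPKM. Pltp, the phospholipid transfer protein, averaged 43.0, 54.8 and 38.1 FPKM. None of the 6 passed the threshold between the WT groups or between the Ang II groups, and the correlations are a ranking over 12636 genes, given without a p.

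Kit varied against the chymase too, with a ratio to Mcpt4 from 0.552 to 5.07 over the libraries, a range of 9.20 times. Within groups the ratio ran from 0.672 to 1.87 in KO Ang II, from 0.552 to 2.38 in WT Ang II and from 1.89 to 5.07 in WT saline libraries. The KO Ang II and WT saline ranges thus did not meet, if only by a narrow margin. The ratios of Tpsb2, Cma1 and Cpa3 to Mcpt4 overlapped between these groups. Of single genes tested, 1.83% showed no overlap between them. No such share was worked out for ratios, so this one is not shown to be unusual.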
